A study of Rattus norvegicus with 4 samples.

Results

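Mural cells are the contractile and supporting cells wrapped around brain blood vessels, namely pericytes on capillaries and smooth muscle cells on arterioles and larger vessels. In nuclei of rat orbitofrontal cortex they were chosen by counts of unique molecular identifiers (UMIs, each a counted RNA molecule). A nucleus needed at least 500 detected genes, at most 5% mitochondrial UMIs and at least 3 UMIs summed over Abcc9, Atp13a5, Rgs5, Pdgfrb and Acta2. It could hold at most 1 UMI of the endothelial genes Flt1, Cldn5 and Ptprb, at most 1 UMI of the fibroblast genes Dcn and Slc6a13, and at most 2 UMIs of the neuronal genes Slc17a7, Camk2a, Gad1 and Gad2. Col1a2, a further fibroblast gene of the rule, was not analysed here, so that limit rested on the other two genes. The rule found 214 mural nuclei among 46633 barcodes, of which 43903 were within the gene and mitochondrial limits.

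The study profiled nuclear RNA of male Sprague-Dawley rats, 8 weeks old, that had received either methamphetamine (METH, 1 mg/kg) or saline intraperitoneally for 7 days. Pentobarbital anaesthesia preceded sacrifice in both groups, and the orbitofrontal cortex of 4 animals per group was used. Each group has 2 libraries of droplet-captured nuclei. The labels do not tie animals to libraries, so the spread between libraries may include pooled animals or technical repeats.

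Pericytes share a basement membrane with the endothelium and are held there by platelet-derived growth factor B signalling through Pdgfrb. Their tone is set by membrane potassium channels, calcium entry and cyclic GMP, and smooth muscle cells add a contractile apparatus of actin, myosin heavy chain and actin-binding proteins. In brain both cell types are known for control of local blood flow and for support of the blood-brain barrier.

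The 4 libraries contributed unequally. METH replicate 1 gave 50 mural nuclei of 9774 kept nuclei, METH replicate 2 gave 91 of 8565, saline replicate 1 gave 16 of 17393, and saline replicate 2 gave 57 of 8171. Summed mural UMIs were 78550, 153376, 33331 and 89061 in the same order, 354318 in all. Saline replicate 1 stood apart, with the most kept nuclei and the fewest mural nuclei. Its mural nuclei also carried a summed level of the neuron marker list of 4560 CPM (UMIs of a gene per 1000000 UMIs of the same nuclei), against 1095 to 1350 CPM in the other 3 libraries. Pairs of libraries shared 23 to 69 barcode sequences, and no barcode of a mural nucleus was shared.

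Mural nuclei were shallow. Their median UMI count was 973 and 1026 in the METH libraries and 1163 and 951 in the saline libraries, while medians over all kept nuclei ran from 1969 to 3741. Of the 214 nuclei, 88 also held at least 5 UMIs of the astrocyte, oligodendrocyte, oligodendrocyte precursor, microglia or neuron marker list. Those mixed nuclei had a median of 2147 UMIs against 822.5 in the other 126, and they carried 68.7% of all mural UMIs. Astrocyte genes reached 5 UMIs in 53 nuclei, oligodendrocyte precursor genes in 25, microglia genes in 23, oligodendrocyte genes in 18 and neuron genes in 16. Of 23 mural nuclei marked as likely doublets by Scrublet, 20 were mixed. Without the mixed nuclei 31 and 55 nuclei remained in the METH libraries, 37 in saline replicate 2 and only 3 in saline replicate 1, so saline replicate 1 is nearly absent from every value given without them. The split at 5 UMIs was chosen after the data were seen.

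**Figure D1:**
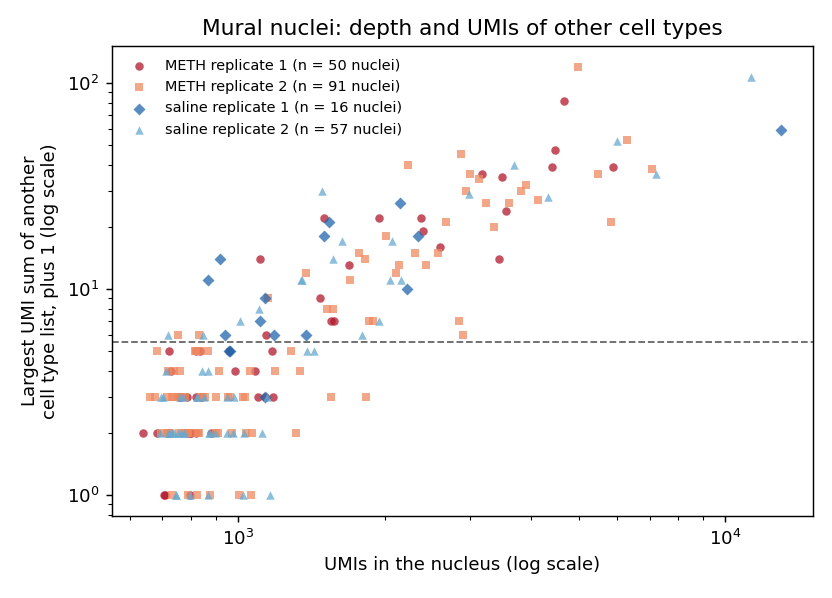
Each point is 1 mural nucleus, with its UMI count on the x axis (log scale) and the largest UMI sum of any of 5 other cell type lists, plus 1, on the y axis (log scale), coloured by library. The 88 nuclei above the dashed line are the mixed nuclei, which reach the highest UMI counts, and 13 of the 16 nuclei of saline replicate 1 lie there.

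The rule's own genes are a description of the choice and not a finding. Abcc9, the sulfonylurea receptor subunit of the vascular ATP-sensitive potassium channel, was at 789 and 815 CPM in the METH libraries and at 420 and 1089 CPM in the saline libraries. Atp13a5, a P-type ATPase used as a marker of brain pericytes, was at 1464, 1265, 600 and 1460 CPM in the same order, and Rgs5, a regulator of G protein signalling, at 688, 535, 420 and 707 CPM. Pdgfrb, the receptor for platelet-derived growth factor B, was at 980, 874, 570 and 1022 CPM. For these 4 genes saline replicate 1 was lowest and saline replicate 2 was highest or close to the highest, so the groups overlapped. Acta2, smooth muscle actin, was at 12.7 and 313 CPM in the METH libraries, 0 in saline replicate 1 and 618 CPM in saline replicate 2.

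The selection rested on few molecules per nucleus. At least 2 of the 5 selecting genes were present in 168 of 214 nuclei, and 13 nuclei were included only with the help of Acta2. Exactly 3 marker UMIs were held by 58 nuclei just inside the limit, and a further 187 nuclei met the other limits with 2. Ebf1, a gene the rule did not use, was at 148 CPM in the nuclei with 2 marker UMIs, at 553 CPM in those with 3 and at 3388 CPM in the 135 nuclei with 5 or more. Nid1 followed the same order at 29.2, 106 and 379 CPM, and Egflam at 68.9, 317 and 1092 CPM. Slc6a20 did not, with 255 CPM at 2 UMIs and 212 CPM at 3.

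After every nucleus was thinned to 600 UMIs, which left out no mural nucleus, Abcc9 was detected in 41.6% of mural nuclei (95% exact interval 34.9 to 48.5, counting error only), in no endothelial nucleus and in 0.106% of neurons. Endothelial nuclei were themselves limited to 1 UMI over the mural genes of the rule. Without thinning these shares were 54.7%, 0.333% and 0.847%, at median depths of 997, 926 and 4786 UMIs. Notch3, which the rule did not use, was detected after thinning in 15.9% of mural nuclei (11.3 to 21.5), in none of 300 endothelial nuclei and in 0.0185% of neurons. Ebf1 was present in 67.8% of mural and 68.0% of endothelial nuclei after thinning, against 0.185% of neurons. Flt1, the endothelial receptor for vascular endothelial growth factor that the rule limited, was at 1.87% in mural and 81.7% in endothelial nuclei.

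The label was checked against marker lists. Of 24 listed pericyte markers 22 reached 20 CPM in the pooled mural nuclei, and all 22 were over 2-fold above all other kept nuclei with 10 CPM added to both levels, where 18.2% of all 7567 genes at that level were over 2-fold. This count includes the 4 pericyte genes of the rule, and the level was required in mural nuclei, so counts of this kind lean towards genes that are high there, for the lists and for all genes alike. Slc6a12, the betaine transporter, was at 0 UMIs, which allows up to 8.47 CPM, and Foxf2 was not analysed here. Without mixed nuclei the 22 genes were again over 2-fold, with a median of 17.9-fold in place of 7.48-fold, against 19.3% of all genes. Other lists were raised too, with 9 of 10 microglia, 7 of 8 astrocyte and 5 of 8 oligodendrocyte markers over 2-fold. For fibroblast, oligodendrocyte precursor and neuron markers the counts were 3 of 4, 1 of 4 and 0 of 8. Without mixed nuclei the microglia, astrocyte and oligodendrocyte counts were 2, 0 and 0, a fall that follows from the removal, and the fibroblast count stayed at 3. Of 17 endothelial markers measured, 4 reached 20 CPM, and 1 of these was over 2-fold above other nuclei, or 2 without mixed nuclei. Against endothelial nuclei all 4 were over 2-fold lower (4.08% of all genes). The rule limited Flt1, Cldn5 and Ptprb of this list. Cdh5 was at 8.47 CPM against 64.4 CPM in endothelial nuclei. The summed levels of the astrocyte list were 3539 and 2967 CPM in the METH libraries and 1470 and 2201 CPM after saline. Without mixed nuclei, which this list helped to mark, they were 498, 406, 1962 and 338 CPM, the third of these from 6 UMIs.

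Among transcription factors, Ebf1, an early B-cell factor family regulator, was at 2286 CPM over the pooled mural nuclei and 13.6 CPM in all other nuclei, or 97.2-fold higher with 10 CPM added. It was at 2292 and 2028 CPM in the METH libraries and at 600.04 and 3357 CPM in the saline libraries. Endothelial nuclei held a similar level, 2125 CPM, so Ebf1 did not separate mural from endothelial nuclei while mixed nuclei were included. Without mixed nuclei the mural level of Ebf1 was 5288 CPM. Nr2f2, an orphan nuclear receptor, was at 356 CPM in mural nuclei and at 57.0 CPM in endothelial nuclei. Fibroblast nuclei held Nr2f2 at 436 CPM, and mural nuclei without mixed nuclei at 910 CPM. Tbx18, a T-box factor known in mural cell lineages, was at 90.3 CPM against 4.95 CPM in endothelial nuclei, and its relative Tbx15 at 116 CPM against 19.8 CPM. Of 19 transcription factors on the list that reached 20 CPM, 14 were over 2-fold above other nuclei (18.2% of all genes), also without mixed nuclei (19.3%). Zic1 (23 mural UMIs) had no UMI in endothelial nuclei, which made it at least 8.74-fold higher in mural nuclei with the endothelial level set at 3 UMIs.

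Matrix and adhesion genes were high in mural nuclei. Of 28 basement membrane and matrix genes at 20 CPM, 23 were over 2-fold above other nuclei (18.2% of all genes), and 26 without mixed nuclei (19.3%). Lama2, a laminin alpha chain, was at 955 and 672 CPM in the METH libraries and at 450.0 and 865 CPM in the saline libraries, against 7.43 CPM in endothelial nuclei and 1375 CPM in the 51 fibroblast nuclei. Every library's mural level of Lama2 exceeded its endothelial level. Lamc3, a laminin gamma chain, was at 158 CPM with no UMI in endothelial nuclei, at least 21.3-fold higher. Nid1, which links laminin and collagen networks, was at 255 and 319 CPM with METH and at 120 and 258 CPM with saline, a pooled 20.3-fold over other nuclei. Fibroblast nuclei held Lamc3 at 212 CPM and Nid1 at 302 CPM, and pooled mural Nid1 was at 271 CPM. Without mixed nuclei mural Lamc3 was at 378 CPM and mural Nid1 at 631 CPM. Col18a1, the precursor of endostatin, was at 231 CPM against 7.43 CPM in endothelial nuclei. Mcam, an adhesion molecule of the vessel wall, was at 288 CPM against 12.4 CPM in endothelial nuclei.

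Not all matrix genes separated the 2 vessel wall populations. Against endothelial nuclei 12 of the 28 were over 2-fold higher and 2 were over 2-fold lower, where 10.4% of all genes were over 2-fold higher and 4.08% over 2-fold lower. Col4a1, a major basement membrane collagen, was at 107 CPM in mural and 191 CPM in endothelial nuclei. Lama4 stood at 316 and 458 CPM and Itga1, a collagen-binding integrin chain, at 245 and 295 CPM, each in mural and then endothelial nuclei. These mural levels include mixed nuclei, and without them Itga1 was at 586 CPM.

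In the signalling pathways of the vessel wall, receptors and a target gene stood out. Notch3, the Notch receptor of mural cells, was at 166 and 215 CPM in the METH libraries and at 359 CPM in saline replicate 2, and had no UMI in saline replicate 1, which allows up to 90.0 CPM there. With no UMI in endothelial nuclei either, it was at least 29.6-fold higher in mural nuclei. Heyl, a Notch target gene, was at 135 CPM against 9.91 CPM in endothelial nuclei. Of the 38 listed genes of PDGF, Notch, TGF-beta and angiopoietin signalling at 20 CPM, 19 were over 2-fold above other nuclei, with mixed nuclei (18.2% of all genes) or without (19.3%). Against endothelial nuclei 8 were over 2-fold higher (10.4% of all genes) and 10 were over 2-fold lower (4.08%), with Pdgfrb, limited to 1 UMI in endothelial nuclei, on the list. Among the listed genes lower in mural nuclei were Epas1, the hypoxia-inducible factor, at 183 against 538 CPM, and Bmpr2, a bone morphogenetic protein receptor, at 277 against 879 CPM. Vegfa was at 313 CPM over all mural nuclei and at 36.0 CPM without mixed nuclei.

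Genes at successive steps of the nitric oxide and cyclic GMP pathway were detected. The soluble guanylate cyclase subunits Gucy1a2, Gucy1a1 and Gucy1b1, which bind nitric oxide and make cyclic GMP, were at 1544, 268 and 223 CPM in mural nuclei and at 159, 22.3 and 19.8 CPM in endothelial nuclei. Pde5a, which degrades cyclic GMP, was at 212 against 64.4 CPM, and Pde3a, a phosphodiesterase inhibited by cyclic GMP, at 610 against 206 CPM. Mrvi1, a target of cyclic GMP-dependent kinase that damps calcium release, was at 212 CPM with no endothelial UMI, at least 28.5-fold higher. Fibroblast nuclei held Mrvi1 at 257 CPM, and mural nuclei without mixed nuclei at 495 CPM. Ednra, the endothelin receptor of smooth muscle and pericytes, was at 121 CPM against 7.43 CPM in endothelial nuclei. Of 14 genes at 20 CPM on the list of vasoactive receptors and cyclic GMP signalling, 11 were over 2-fold above other nuclei (18.2% of all genes). Without mixed nuclei 10 were (19.3%), and 10 were over 2-fold above endothelial nuclei (10.4%). A further 10 of the 40 measured genes on this list had no UMI in any mural nucleus, among them Avpr1a, the vasopressin receptor, and P2ry1, a purinergic receptor. Agtr1a, the angiotensin receptor, had 3 UMIs.

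Of 27 listed ion channel genes at 20 CPM, 7 were over 2-fold above other nuclei (18.2% of all genes), and 10 without mixed nuclei (19.3%), Abcc9 of the rule among the listed genes. Kcnj8, the pore subunit that pairs with Abcc9, was at 166 and 124 CPM in the METH libraries and at 60.0 and 89.8 CPM in the saline libraries, against 2.48 CPM in endothelial nuclei. Ano1, a calcium-activated chloride channel, was at 147 CPM with no endothelial UMI, at least 19.7-fold higher. Cacna1c, the voltage-gated calcium channel of smooth muscle, was at 271 against 44.6 CPM. Gjc1, a gap junction connexin, was at 296 against 22.3 CPM, and Plce1, a phospholipase C, at 618 against 29.7 CPM.

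Transporters differed in how they stood with and without mixed nuclei. Slc6a20, a proline and imino acid transporter, was at 586 and 795 CPM in the METH libraries and at 150.0 and 898 CPM in the saline libraries, 31.3-fold over other nuclei, and at 1712 CPM without mixed nuclei. It stood at 22.3 CPM in endothelial and 2593 CPM in fibroblast nuclei, the only one of the 5 leading genes of the profile that was highest in fibroblast nuclei. Slc30a10, a manganese exporter, was at 220 against 24.8 CPM in endothelial nuclei and at 469 CPM without mixed nuclei. Slc1a3, the astrocyte glutamate transporter, was at 1098 CPM over all mural nuclei and 234 CPM without mixed nuclei. It is on the astrocyte list that marked mixed nuclei, so this fall follows from their removal. Of 22 listed transporters at 20 CPM, 11 were over 2-fold above other nuclei (18.2% of all genes) and 10 without mixed nuclei (19.3%).

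**Figure D2:**
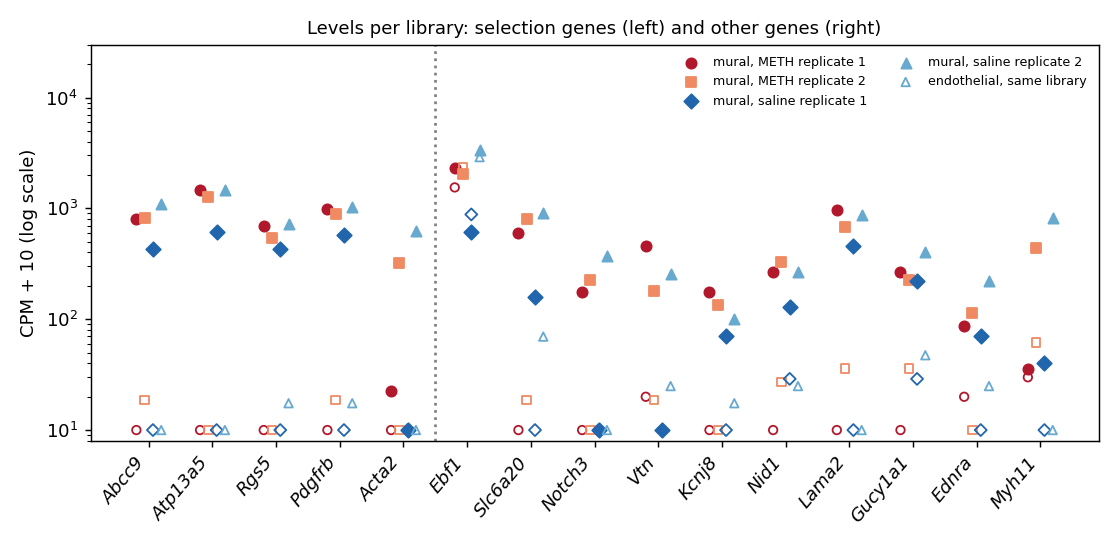
Level of 15 genes per library as CPM plus 10 on a log axis, with filled symbols for mural nuclei and open symbols of the same shape and colour for endothelial nuclei of that library, the 5 selection genes left of the dotted line. Mixed nuclei are included, and with them Ebf1 is alike in both populations. Slc6a20, Notch3 and Lama2 are near the floor in endothelial nuclei, and saline replicate 1 lies lowest or level with the lowest mural library for most genes.

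Other genes among the 30 with the highest fold over all other nuclei, at 20 CPM or more in every library, were known in adhesion, contraction or signalling. Egflam, a matrix protein that binds dystroglycan, was 39.8-fold higher, Rbpms, an RNA-binding protein of smooth muscle, 46.8-fold, and Igfbp7, a secreted binding protein of insulin-like growth factors, 19.1-fold. All 3 were also present in endothelial nuclei, at 389, 201 and 550 CPM. Inpp4b, a phosphoinositide phosphatase, was at 734 CPM against 42.1 CPM in endothelial nuclei, and Arhgap42, a GTPase-activating protein known for control of vascular tone, at 514 against 37.2 CPM. Fibroblast nuclei held Inpp4b at 235 CPM and Arhgap42 at 525 CPM. Without mixed nuclei mural Inpp4b was at 1667 CPM and mural Arhgap42 at 1054 CPM. Clec2g, at 293 CPM in mural and 889 CPM in endothelial nuclei, and Dach1, at 342 and 788 CPM, were on this list although higher in endothelial nuclei. Without mixed nuclei mural Clec2g was at 667 CPM, still below its endothelial level, and Dach1 at 901 CPM, above it. Of the 30 genes, 5 belonged to the matrix list, 3 to the pericyte list and 1 to the contractile list.

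Mural nuclei ranged from a smooth muscle side to a pericyte side. The sum of Acta2, Myh11 and Tagln reached 3 UMIs in 20 nuclei (smooth muscle side), was 0 in 181 (pericyte side) and lay between in 13. Acta2 was also part of the selection, and the split is a range and not 2 types. The smooth muscle side held 1 and 9 nuclei of METH replicates 1 and 2, and 0 and 10 of the saline replicates. The share among mural nuclei was 2.00% and 9.89% against 0.00% and 17.5%, and for the 0 of 16 nuclei in saline replicate 1 the exact interval reached 20.6%. METH libraries averaged 5.95% ± 5.58 (SD, n = 2) and saline libraries 8.77% ± 12.4, with an exact two-sided permutation p of 1.00, and the groups overlapped.

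Without mixed nuclei 14 nuclei remained on the smooth muscle side, 8 from METH replicate 2 and 6 from saline replicate 2, and 106 on the pericyte side. Genes beyond the 3 that made the split followed it. Tpm1, tropomyosin, was at 5870 CPM on the smooth muscle side and 209 CPM on the pericyte side. Eln, elastin, stood at 2116 and 11.0 CPM and Nexn, an actin-binding protein, at 2048 and 21.98 CPM. Of the Eln UMIs without mixed nuclei, 28 came from METH replicate 2, 1 from saline replicate 1 and 3 from saline replicate 2. The Eln level thus rests largely on 1 library, and endothelial nuclei held Eln at 141 CPM. Lmod1, leiomodin, had 20 UMIs against 0, at least 41.4-fold higher with 3 UMIs set for the pericyte side. Pde3a was at 6006 and 726 CPM, Dmd, dystrophin, at 9487 and 1022 CPM, and Mylk, myosin light chain kinase, at 1706 and 286 CPM. Ntrk3, the neurotrophin-3 receptor, was at 3208 and 55.0 CPM. Cald1, caldesmon, did not separate them, with 1911 and 1737 CPM.

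Genes higher on the pericyte side included transporter and matrix genes. Slc6a20 was at 1979 CPM there with no UMI on the smooth muscle side, at least 9.66-fold higher. Atp13a5 had 343 UMIs against 0, but a nucleus without Acta2 could be selected only through Abcc9, Atp13a5, Rgs5 and Pdgfrb, so the selection pushes these 4 genes towards the pericyte side. Lama2 stood at 2165.5 CPM against 68.3 CPM and Vtn, vitronectin, at 671 against 68.3 CPM, the lower values from 1 UMI each. Kcnj8 had 30 UMIs against 0, and at this depth 0 UMIs allowed up to 205 CPM on the smooth muscle side against 330 CPM on the pericyte side. Ebf1, at 4914 CPM on the pericyte side and 6894 CPM on the smooth muscle side, and Notch3, at 396 and 614 CPM, were present on both.

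**Figure D3:**
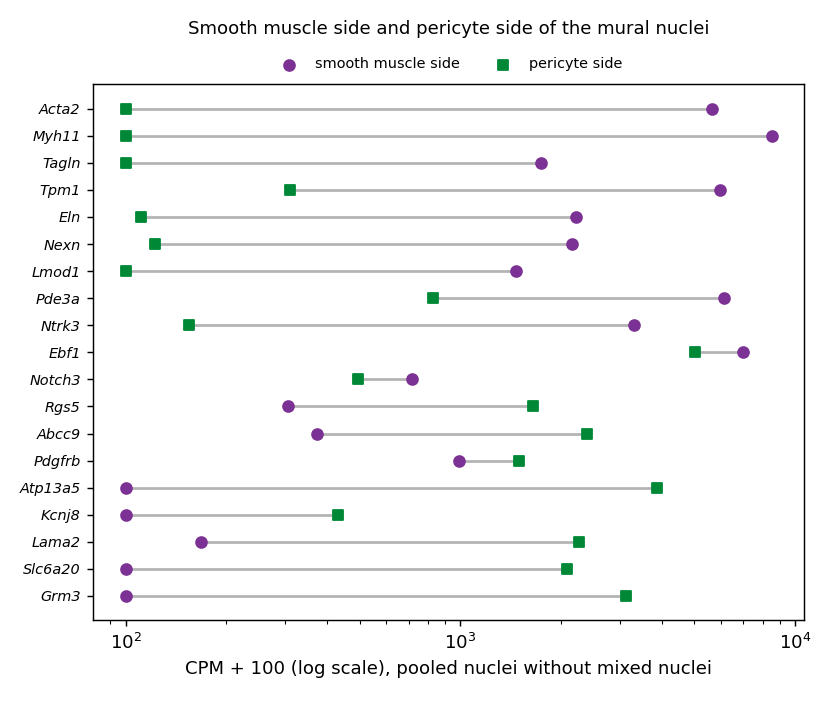
Level of 19 genes as CPM plus 100 on a log axis, pooled over the 14 nuclei of the smooth muscle side (circles) and the 106 nuclei of the pericyte side (squares) after mixed nuclei were left out. Contractile genes from Acta2 to Lmod1 lie to the right for the smooth muscle side, Slc6a20, Lama2 and Grm3 for the pericyte side, while Ebf1 and Notch3 are close together, and the positions of Acta2, Myh11 and Tagln (which made the split) and of Abcc9, Atp13a5, Rgs5 and Pdgfrb (selecting genes) follow from the choice of nuclei.

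The start of Acta2 is shown because its counts, with those of Myh11 and Tagln, set the smooth muscle side. Serum response factor is known to bind CArG boxes, CC and GG around a stretch of A and T, in genes of the contractile apparatus. The 250 bases before the RefSeq start (GRCr8, chr1:241172504-241172753, minus strand, written 5′ to 3′ in the direction of the gene) hold 2 matches, in capitals, that begin 134 and 84 bases before the start.

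Acta2: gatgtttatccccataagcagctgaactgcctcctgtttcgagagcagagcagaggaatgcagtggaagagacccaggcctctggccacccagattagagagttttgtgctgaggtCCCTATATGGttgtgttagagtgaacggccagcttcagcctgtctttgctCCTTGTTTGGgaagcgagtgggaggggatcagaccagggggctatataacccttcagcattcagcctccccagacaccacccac

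A match was CC, then 6 bases of which at least 5 were A or T, then GG, a pattern that reads the same on both strands. Such a match stood at least once in 8.08% of the 33469 RefSeq windows of the same length and at least 2 times in 0.693%. With all 6 bases A or T, a match stood in 1.497% of windows, and the Acta2 window had none. Of 17 contractile genes with a RefSeq window, 2 had a match (Acta2 and Crip1), as did 2 of 17 pericyte markers. Both contractile genes held 2 matches (11.8% of the 17) and no pericyte marker did, counts too small to read beyond these genes.

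METH and saline were then compared, first for the number of mural nuclei. Their share of kept nuclei was 0.512% (95% exact interval 0.380 to 0.674) and 1.06% (0.856 to 1.30) in the METH libraries, and 0.0920% (0.0526 to 0.149) and 0.698% (0.529 to 0.903) in the saline libraries. Saline replicate 1 was lowest, saline replicate 2 lay between the METH libraries, and the groups overlapped. Means were 0.787% ± 0.390 (SD, n = 2) and 0.395% ± 0.428, a difference of 0.392 percentage points with an exact two-sided permutation p of 0.667. With 2 libraries a group this test cannot go below 0.333. Thinned to 600 UMIs before the rule was applied, the shares were 0.307% and 0.595% against 0.0288% and 0.514%, in the same order. Endothelial nuclei moved with mural nuclei, with 0.665% and 1.11% in the METH libraries and 0.161% and 1.37% in the saline libraries.

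Within the vessel wall the order differed. Mural nuclei made up 43.5% and 48.9% of mural plus endothelial nuclei in the METH libraries and 36.4% and 33.7% in the saline libraries. Both METH libraries were above both saline libraries, with means of 46.2% ± 3.85 and 35.0% ± 1.86 (SD, n = 2 each), and the exact two-sided permutation p was 0.333, the smallest the design allows. The exact interval of saline replicate 1, 22.4 to 52.2%, spanned all 4 values. Without mixed nuclei the percentages were 32.3% and 36.7% against 9.68% and 24.8%, and the third of these rested on 3 mural nuclei.

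**Figure D4:**
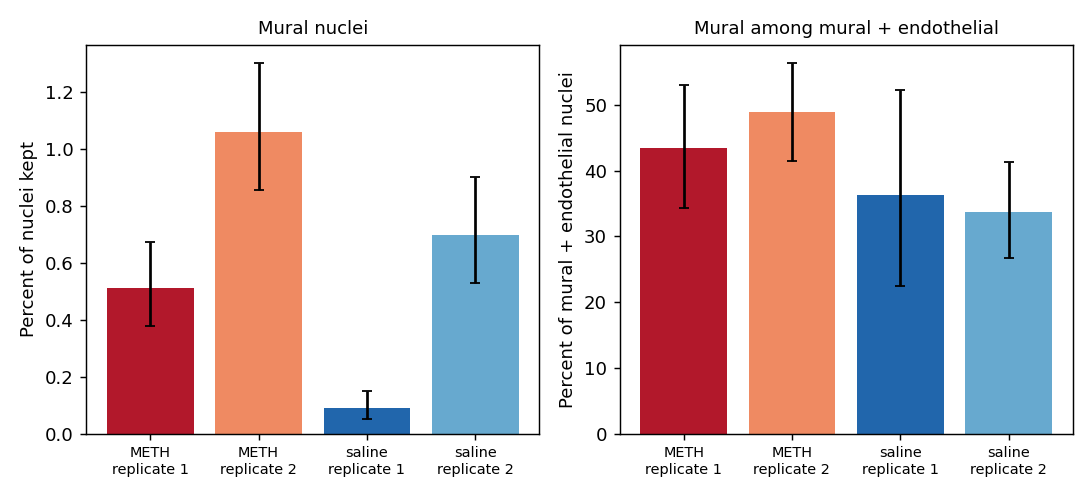
Bars give, per library, the percent of kept nuclei that were mural (left) and the percent of mural plus endothelial nuclei that were mural (right), with 95% exact intervals that cover counting error only. On the left saline replicate 2, at 0.698%, lies between the METH libraries at 0.512% and 1.06%, and on the right both METH bars are above both saline bars.

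For expression, UMIs were summed over the mural nuclei of each library and tested with edgeR's quasi-likelihood test. No gene of 2196 tested was called at an adjusted p under 0.05 (0.0%), 81 had an unadjusted p under 0.05 (3.69%), and the smallest Benjamini-Hochberg adjusted p was 0.9997. DESeq2 called none and gave 33 genes an unadjusted p under 0.05. The standard error of the log2 fold change was 0.46 at the median gene. For 774 genes (35.2%) the METH libraries did not overlap the saline libraries.

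Pericyte identity genes gave no call. Of 11 tested pericyte markers 10 had positive log2 fold changes, METH over saline, with a median of 0.24 against 0.00 over all tested genes. The median was -0.07 without saline replicate 1, with 6 of 14 positive, and 1.30 without saline replicate 2, where 5 of 11 were called. Abcc9 had a log2 fold change of 0.03 ± 0.41 (SE), Atp13a5 0.37 ± 0.43, Rgs5 0.06 ± 0.35 and Pdgfrb 0.19 ± 0.36. All of these are among the 11, and their UMIs chose the nuclei. The selection therefore conditions their levels, as it does that of Acta2, and their changes cannot be read apart from it. Kcnj8, with both METH libraries above both saline libraries, had 0.83 ± 0.55, and Vtn, at 446, 170, 0 and 247 CPM, had 0.85 ± 0.79. Of 7 contractile genes tested 4 were positive, and Acta2 (-0.99 ± 1.20) and Myh11 (-0.92 ± 1.13) had the widest errors, with Myh11 at 25.5 and 430.3 CPM in METH libraries against 30.0 and 808 CPM after saline.

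Among the genes with the smallest p and a positive change was Heyl, at 153 and 202 CPM in the METH libraries and 30.0 and 44.9 CPM in the saline libraries. Its groups did not overlap, and its log2 fold change was 2.15 ± 0.60 with an unadjusted p of 0.00523 in edgeR across all genes. The saline values rested on 1 and 4 UMIs, and the log2 fold change was 1.04 with nuclei of at least 2 marker UMIs. Cpe, a peptide-processing carboxypeptidase, was at 891 and 685 CPM against 180 and 415 CPM (log2 1.28 ± 0.39), with 19 of 218 UMIs outside the mixed nuclei, and had 0.14 with nuclei of at least 5 marker UMIs. Slco1c1, a thyroid hormone transporter of barrier endothelium and astrocytes, was at 127 and 189 CPM against 60.0 and 22.5 CPM (log2 2.25 ± 0.71), with 2 UMIs in each saline library, 4 of 43 UMIs outside the mixed nuclei and a log2 fold change of 0.62 at 2 marker UMIs. The astrocyte list was higher in both METH libraries, as given above, and its part in these values was not tested.

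Among those with a negative change was Pde3b, a phosphodiesterase, at 204 and 222 CPM in METH against 720.1 and 449 CPM in saline libraries (log2 -1.36 ± 0.37). Only 8 of its 114 UMIs lay outside the mixed nuclei, 1 and 7 in the METH libraries and none in the saline libraries, so the direction is not seen there. Il1rapl2 (-1.62 ± 0.43), Trhde (-1.82 ± 0.50) and Cdh13 (-1.55 ± 0.43) also had lower values in both METH libraries than in both saline libraries, with 9 of 59, 6 of 68 and 30 of 69 UMIs outside the mixed nuclei. Trhde turned to 0.21 with nuclei of at least 2 marker UMIs. The neuron list was highest in saline replicate 1, as given above, and its 3 tested genes had a median log2 fold change of -1.05. Without mixed nuclei only 2 neuron genes could be tested and both were positive. The part of neuronal RNA in the genes that were lower was not tested.

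No mitochondrially encoded gene was called, but their values lay on one side. The rule capped mitochondrial UMIs at 5% of a nucleus, so the selection conditions the levels of these genes. All 8 mitochondrial genes tested had positive log2 fold changes with a median of 1.29. Of these, 5 had an unadjusted p under 0.05 in edgeR, against 3.69% of all genes. Mt-co2, a cytochrome oxidase subunit, was at 496 and 267 CPM in the METH libraries and 150.0 and 89.8 CPM in the saline libraries (1.77 ± 0.50), and Mt-nd4, a complex I subunit, at 204 and 319 against 60.0 and 89.8 CPM (1.75 ± 0.49). The 13 genes summed to 3386 and 1989 CPM in the METH libraries against 1230 and 1089 CPM after saline. The groups thus did not overlap, with METH higher, as was so for 16.3% of all tested genes. In all other nuclei the same sum was 981, 671, 861 and 871 CPM, and in endothelial nuclei 1734, 1982, 1156 and 2275 CPM, where the groups overlapped. Without METH replicate 1 the median was 0.80 with 8 of 8 positive, and with nuclei limited to 1% mitochondrial UMIs it was 0.42 with 5 of 5 positive. Without mixed nuclei only 2 mitochondrial genes could be tested, and both were positive. The 13 genes then summed to 4669 and 2271 CPM with METH against 1308 and 1631 CPM with saline, the third of these from 4 UMIs.

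Other lists gave no called gene. Of 14 tested matrix genes 10 were positive (median 0.29), with Col18a1 at 255 and 306 CPM against 0 and 168 CPM (1.33 ± 0.62). Of 9 tested vasoactive and cyclic GMP genes 7 were positive (median 0.24), with Gucy1b1 at 369 and 202 CPM against 60.0 and 191 CPM (0.92 ± 0.52). Of 19 ion channel genes 8 were positive (median -0.07), and Slc8a1, the sodium-calcium exchanger, had -0.76 ± 0.34. Of 11 transcription factors 8 were positive (median 0.18), with Mef2c, a myocyte enhancer factor, at 471 and 548 against 1110 and 988 CPM (-1.003 ± 0.32). Outside the mixed nuclei lay 99 of 290 Slc8a1 UMIs and 89 of 246 Mef2c UMIs, none of them in saline replicate 1. The 4 tested astrocyte genes were all positive (median 0.77). Of 3 inflammation genes tested 1 was positive, and Ifngr1, an interferon gamma receptor chain, had -0.85 ± 0.48. Cst3, the secreted protease inhibitor cystatin C, had 0.56 ± 0.38, and Smarcc1, a chromatin remodelling subunit, 0.94 ± 0.43 with 12 of 87 UMIs outside the mixed nuclei. Fkbp5, a glucocorticoid-responsive gene, and C1qa, a complement gene of microglia, with 20 and 37 UMIs, did not pass the filter on low counts.

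**Figure D5:**
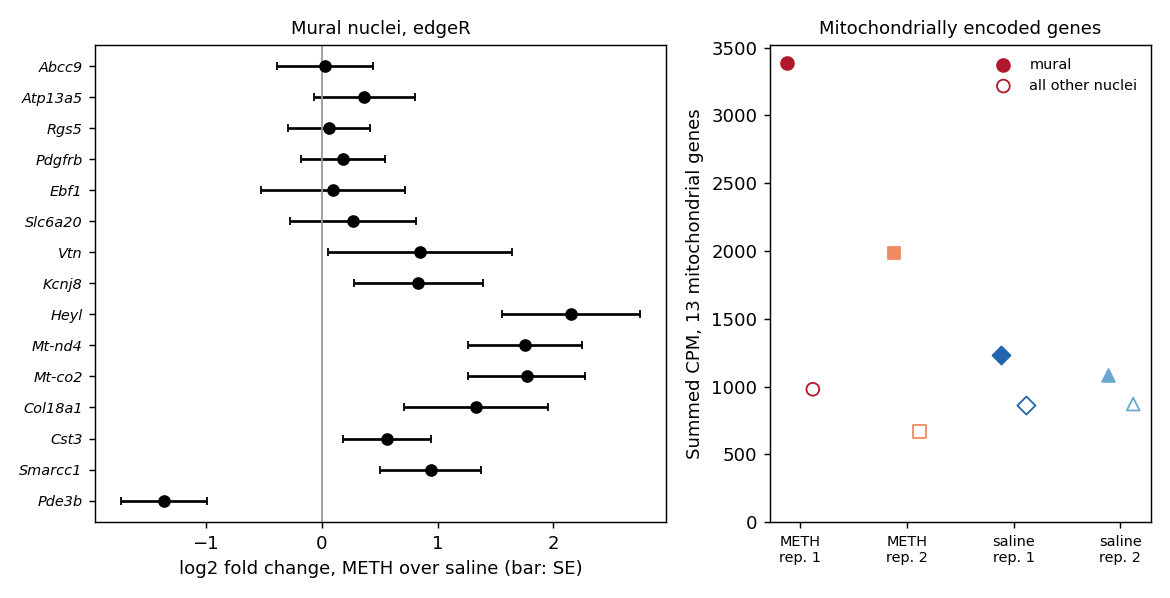
Left, edgeR log2 fold changes (METH over saline) of 15 genes in mural nuclei with bars of 1 SE, and right, the summed CPM of 13 mitochondrially encoded genes per library in mural nuclei (filled) and all other nuclei (open). The 4 pericyte genes of the rule, whose UMIs chose the nuclei, lie within 1 SE of 0, and no gene was called after adjustment. The mural mitochondrial sums of the METH libraries, 3386 and 1989 CPM, exceed those of the saline libraries. Of all tested genes, 16.3% had both METH libraries above both saline libraries.

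Whether the METH effect in mural nuclei differed from that in endothelial nuclei was tested directly, with the library as a block. Of 3247 genes 1 was called (0.0308%), and 139 had an unadjusted p under 0.05 (4.28%). Reln, the secreted glycoprotein reelin, had 2 and 13 UMIs in mural nuclei of the METH libraries and 24 and 13 in those of the saline libraries. In endothelial nuclei it was at 169 and 42.9 CPM in the METH libraries against 0 and 7.46 CPM after saline. The METH effect was lower in mural than in endothelial nuclei by a log2 difference of -6.02 ± 1.07 (edgeR adjusted p 6.05e-05). The gene was not called without METH replicate 1 (-4.47) or without saline replicate 1 (-4.61), and without mixed nuclei no gene was called, with mural Reln then at 2, 2, 0 and 1 UMIs. Sema3c (-3.75 ± 0.96) and Ptpro (-5.12 ± 1.33) came next, with an adjusted p of 0.108 each. Mt-co2, at 1.99 ± 0.62, had an adjusted p of 0.537. In endothelial nuclei alone, edgeR called none of 2854 genes, with 49 at an unadjusted p under 0.05.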

How the data were processed

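Nuclear RNA of 4 droplet libraries (2 METH, 2 saline) was analysed. The deposited files hold UMI counts per gene and barcode, made with Cell Ranger 7.0.0 per the submitters' processing notes. Those notes name a human build although every gene carries a rat Ensembl identifier, and the build behind the counts is therefore unknown here. Mural nuclei were found by the rule in the opening paragraph, endothelial and fibroblast nuclei by at least 3 UMIs of their own genes with the other limits and at most 1 UMI of the mural genes, and neurons by at least 3 UMIs of the 4 neuronal genes. The members and all 20 gene lists (386 of 401 genes measured) were chosen with earlier results of these data known. Levels are UMIs of a gene per 1000000 UMIs of the pooled nuclei, and pooled levels were described without a test. Counts summed per library were tested with edgeR 4.0.16 in R 4.3.3 (quasi-likelihood, TMM, low counts filtered, Benjamini-Hochberg over all tested genes, two-sided), with DESeq2 1.42.0 as an alternative, after tests on simulated data. Doublets were scored with Scrublet (Scanpy 1.11.5) and not removed, except in an alternative at 0.8% per 1000 barcodes. Promoter windows came from RefSeq (GRCr8).

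Named genes were those of the rule, the 30 with the highest fold over other nuclei (10 CPM added, at least 20 CPM in every library, placeholder names left out), the list members with the highest level, and, with no gene called, the 5 with the smallest p in each direction and 2 per list. For the test against endothelial nuclei up to 6 called genes, otherwise 3, were taken per direction, and Cst3, Smarcc1, Fkbp5 and C1qa were given whatever their result. Genes outside these rules, such as those named for the 2 sides, were chosen after their values were seen. Bounds against 0 UMIs set the floor at 3 counts over the pooled group. Some genes that these rules name are not reported here.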

Additional observations from a re-analysis of the deposited data

Results flagged for a closer look

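The METH effect on Reln differed between mural and endothelial nuclei by a log2 difference of -6.02 (SE 1.07), by a test of the difference itself. Mural Reln was at 25.5 and 84.8 CPM in the METH libraries and at 720.1 and 146 CPM in the saline libraries, while endothelial Reln was at 169 and 42.9 CPM against 0 and 7.46 CPM. Of the 52 mural UMIs, 24 came from saline replicate 1, the library in which the neuron list was at 4560 CPM in mural nuclei. The gene was not called without that library (-4.61), without METH replicate 1 (-4.47) or without mixed nuclei, and 5 of these UMIs lay outside the mixed nuclei.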

How the results depend on the processing

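No gene was called for METH against saline under DESeq2, RLE factors, no filter on low counts, a fit without robust estimation, 2 or 5 marker UMIs, 1000 genes, 0 endothelial and fibroblast UMIs, doublets removed, 1% mitochondrial UMIs, equal numbers of nuclei, the pericyte side only or, chosen after seeing the data, without mixed nuclei. With the replicate number as a block 1 gene was called (Ptgds). The labels tie same-numbered libraries by nothing but the number, and their deviations correlated at r = 0.0625 over 2196 genes. That correlation cannot show whether they shared a batch. Leaving out 1 library at a time gave 0 to 104 calls, with 104 without saline replicate 2, where saline replicate 1 stood alone and was assumed to vary like the METH libraries, 4 without saline replicate 1 and 1 without METH replicate 1. For the test against endothelial nuclei the count of 1 became 0 to 10, with 10 without saline replicate 2, 0 without METH replicate 1 and 0 without mixed nuclei, while without saline replicate 1 the 1 gene called was Sox6. Of 443 values of 33 followed genes, 424 kept direction and side of the threshold, 11 were called and 2 lost their call. The 6 that reversed were Trhde (0.21 at 2 marker UMIs), Cst3 (-0.77 with equal numbers of nuclei), Tpm1 (-1.84 to 0.98 on leaving out 1 library, positive without saline replicate 2), Lmod1 (-0.61 to 6.86 on leaving out 1 library, negative without METH replicate 2), Ifngr1 (0.16 on the pericyte side) and Ptgds (-0.0680 against endothelial nuclei without mixed nuclei). The cause of these changes was not tested. The difference in mural share kept its sign under every alternative run, but it was smaller without saline replicate 1. The METH mean was then 0.787% against 0.698% in saline replicate 2. That library lay between the METH libraries in each choice of nuclei except at least 1000 genes, with 0.208% against 0.226% and 0.512%. Depth limits single genes most in saline replicate 1, where 0 UMIs allow up to 90.0 CPM.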

Other observations

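Grm3, a metabotropic glutamate receptor known in astrocytes and neurons, was at 2992 and 2732 CPM in mural nuclei of the METH libraries and at 1080 and 2807 CPM in those of the saline libraries, against 1091 CPM in all other nuclei. It was picked after its values were seen. Without mixed nuclei it was at 2622 CPM, from 80 and 128 UMIs with METH and 2 and 81 UMIs with saline. Endothelial nuclei held it at 1045 CPM. The astrocyte genes Slc1a2 and Slc4a4 were at 54.1 and 18.0 CPM without mixed nuclei. Both are on a list that marked the mixed nuclei, so their low level follows from the removal, and the source of Grm3 RNA was not tested. Among the nuclei left, Grm3 was at 3023 CPM on the pericyte side with no UMI on the smooth muscle side, at least 14.8-fold higher. Plxdc2, a membrane protein, was at 3737 CPM on the pericyte side and 205 CPM on the smooth muscle side, and Pde8b, a phosphodiesterase for cyclic AMP, at 3067 and 137 CPM.

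At least 1 UMI in mural nuclei was found for 22 of 27 inflammation genes and 20 of 23 measured immediate early and stress genes. Of 13 inflammation genes at 20 CPM, 10 were over 2-fold above other nuclei (18.2% of all genes), and 9 without mixed nuclei (19.3%). Against endothelial nuclei 2 were over 2-fold higher (10.4%) and 4 over 2-fold lower (4.08%). Il1r1, the interleukin-1 receptor, was at 119 CPM in mural and 699 CPM in endothelial nuclei. Of 10 immediate early and stress genes at 20 CPM, 3 were over 2-fold above other nuclei (18.2% of all genes), and 6 without mixed nuclei (19.3%). Zfp36, an RNA decay factor, was at 25.5 and 91.3 CPM in the METH libraries and at 0 UMIs in both saline libraries. There 0 UMIs allow up to 90.0 and 33.7 CPM, and Zfp36 was not among the genes tested. Of all tested genes, 35.2% had groups that did not overlap. Il6, Lcn2 and Socs3 had no UMI in any mural nucleus.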
